A study of Homo sapiens with 4 samples.

Results

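The sites described here are TBX3 summits inside long terminal repeat (LTR) elements of endogenous retroviruses other than the ERVL and MaLR families. They came from ChIP-seq of HA-tagged TBX3, a T-box transcription factor, in 501mel, an established human melanoma cell line. The 4 samples were 2 anti-HA ChIP replicates and 2 inputs, and a list of peak summits was analysed for each ChIP replicate. All of them share the cell line, the antibody detects the tag and so only the tagged protein, and the inputs were not analysed here. A site was taken when the deposited annotation of a replicate 1 summit gave the repeat class LTR and a family not starting with ERVL, and when a replicate 2 summit lay within 200 bp as its mutually nearest summit. This gave 795 sites among 22702 shared regions of any kind. They carried 202 repeat names, and they lay nearest to 690 different genes. At the limit of the rule, the widest accepted pairs were 200 bp apart, in a HERVK9-int and a MER50-int element. The narrowest rejected pairs were 202 bp apart in MER67B and 205 bp apart in LTR7C.

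Endogenous retroviruses are remnants of germline infections. A provirus has a pair of LTRs around an internal part with the viral genes, and recombination between the LTRs often leaves a solo LTR behind. LTRs carried the promoter and enhancer of the virus, and many still hold binding sites for transcription factors of the host. ERV1 elements resemble gammaretroviruses, ERVK elements resemble betaretroviruses, and the Gypsy remnants are much older. T-box factors bind DNA through a conserved domain, and TBX3 is best known as a repressor.

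Sequence was at hand only for gene promoters, from 250 bases before to 50 bases after the start, taken from RefSeq for GRCh38.p14. Not every chromosome was searched for sites at such windows, so the counts given here cover the searched chromosomes only. There, a single site had a summit in such a window, that of the non-coding gene LOC105369321 (chr11:60683821-60684120, minus strand). This site was in an LTR46 element on chromosome 11. Its summits were at 60683936 in replicate 1 and 60684102 in replicate 2, at positions 185 and 19 of the window counted from its 5′ end, and the 167 bases from one summit to the other are in capitals. A further 2 sites, both in HERVS71-int, the internal part of a gammaretrovirus-like element, lay just past the 3′ end of a promoter window on the plus strand. These were LOC124906285 (chr3:130179284-130179583, summits at 130179636 and 130179653) and LOC101928217 (chr4:4032949-4033248, summits at 4033348 and 4033352). They are shown because they share 1 repeat name, and the summits themselves fall outside the printed bases.
LOC105369321: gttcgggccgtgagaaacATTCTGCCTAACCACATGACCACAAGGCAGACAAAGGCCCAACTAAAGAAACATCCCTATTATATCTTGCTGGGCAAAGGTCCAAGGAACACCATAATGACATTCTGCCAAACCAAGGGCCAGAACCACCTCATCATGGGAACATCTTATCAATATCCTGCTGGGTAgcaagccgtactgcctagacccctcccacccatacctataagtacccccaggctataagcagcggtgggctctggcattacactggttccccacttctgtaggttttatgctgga
LOC124906285: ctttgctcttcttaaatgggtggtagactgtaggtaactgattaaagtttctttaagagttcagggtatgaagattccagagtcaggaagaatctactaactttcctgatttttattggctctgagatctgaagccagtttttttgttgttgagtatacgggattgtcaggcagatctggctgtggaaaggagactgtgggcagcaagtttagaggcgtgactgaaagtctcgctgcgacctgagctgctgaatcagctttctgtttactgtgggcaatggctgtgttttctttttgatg
LOC101928217: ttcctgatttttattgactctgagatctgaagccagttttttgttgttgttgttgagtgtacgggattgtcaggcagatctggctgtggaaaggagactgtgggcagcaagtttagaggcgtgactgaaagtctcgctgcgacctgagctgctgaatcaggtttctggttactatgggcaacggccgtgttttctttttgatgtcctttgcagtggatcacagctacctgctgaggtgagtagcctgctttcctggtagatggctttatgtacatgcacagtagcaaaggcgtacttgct

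The 2 promoter windows beside HERVS71-int shared a nearly identical stretch. Bases 103 to 300 of the LOC124906285 window aligned with bases 1 to 203 of the LOC101928217 window, with 191 of 198 aligned bases identical (96.5%) and 5 bases in gaps. The summits of these elements, which lie outside the aligned bases, stood at different ranks. How any reads that fit both copies were assigned is not given in the sources used here. The chromosome 3 copy was at score percentile 31.1 in replicate 1 and 13.8 in replicate 2, and the chromosome 4 copy was at 62.1 and 68.8. A score percentile is the rank of the deposited peak score within its own list, where 100 is the highest score. The LTR46 site was at 31.1 and 65.9. None of the 3 windows held AGGTGTGA, a T-box consensus, on either strand, nor the E-box CACGTG or its extended form TCACGTGA that MITF-type factors bind, and CACGTG lies within TCACGTGA. Among all 35116 promoters of the same length, 0.980% held AGGTGTGA, 7.26% held CACGTG and 0.980% held TCACGTGA.

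By family, 501 of the 795 sites were in ERV1 (63.0%, 95% Wilson interval 59.6% to 66.3%) and 232 in ERVK (29.2%, 26.1% to 32.4%). Gypsy held 37 sites and a further 16 carried the uncertain label Gypsy?, led by MamGypsy2-I with 8 sites and MamGypLTR3a with 7. The family labelled only LTR held 7 sites, and ERV1? held 2. ERVK sites were spread over only 26 names, against 152 names for ERV1. Names of internal sequence, such as HERVH-int, made up 119 sites (15.0%, 12.7% to 17.6%). The 10 names with at least 15 sites held 276 sites, 34.7% of the total. They were MER50 (55 sites), LTR5_Hs (46), LTR3B (27), LTR3B_ (26), LTR1A2 (24), MER11A (22), LTR8B (22), LTR13 (20), LTR3A (17) and LTR7C (17). At the other end, 93 names had 1 site each. In replicate 2 the partner summit carried another repeat name or no repeat at 43 sites (5.41%).

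How often a replicate 1 summit had a partner differed by name. Since a partner was required by the rule, these shares describe how the sites were chosen. Of all 32479 replicate 1 summits, 69.9% had a partner, and of the 1171 in these families 795 did (67.9%, interval 65.2% to 70.5%). The share was 75.3% in ERVK (70.2% to 79.8%) and 64.9% in ERV1 (61.5% to 68.2%). Nearly every LTR3B summit recurred, 27 of 28 (96.4%, 82.3% to 99.4%), as did 22 of 23 in LTR8B (95.7%, 79.0% to 99.2%). LTR13 was lowest of the 10 names, with 20 of 38 (52.6%, 37.3% to 67.5%). Internal names recurred at 57.8% (50.9% to 64.3%) and LTR names at 70.1% (67.1% to 72.9%). In replicate 2, 50.6% of the 1558 summits of these families had a partner, beside 56.1% of all summits. The share also followed the score. Below the 25th percentile of replicate 1, 36.9% of these summits had a partner, beside 29.7% of all summits, and above the 75th 96.9% did, beside 97.6%.

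**Figure D1:**
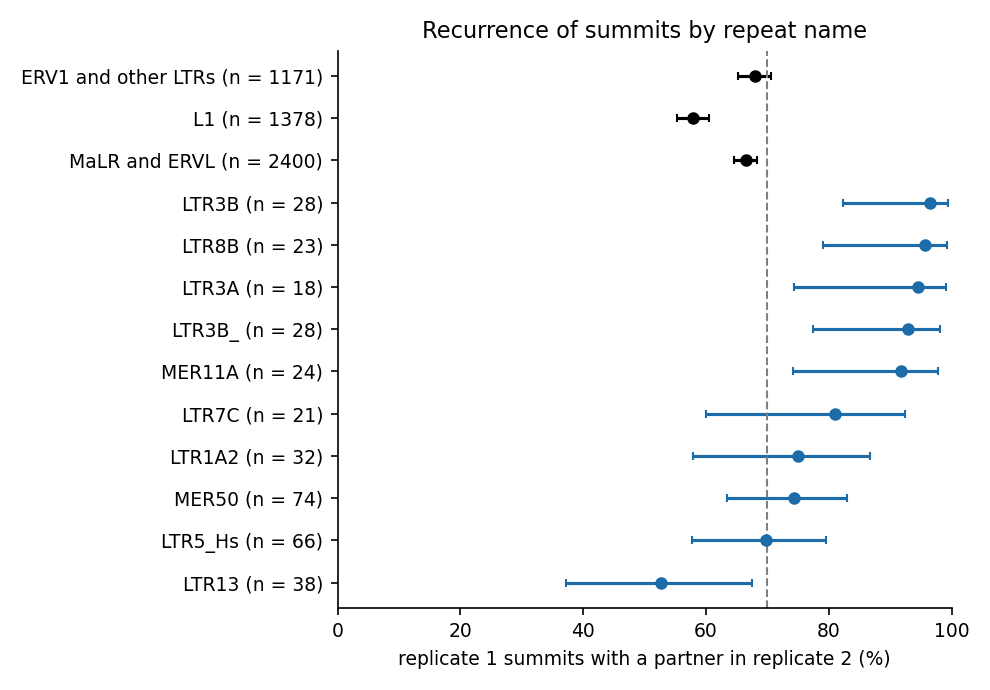
Share of replicate 1 summits with a mutually nearest replicate 2 summit within 200 bp (x axis, percent), for the 10 repeat names with at least 15 sites (blue) and for 3 repeat groups (black), with n the replicate 1 summits. Bars are 95% Wilson intervals for counting error only and the dashed line is the 69.9% of all summits, and LTR13 at 52.6% and LTR3B at 96.4% are the ends of the range among names.

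As a group, the 795 sites had lower scores than shared regions at large. Their median percentile was 54.5 in replicate 1 and 67.3 in replicate 2, against 63.6 and 70.5 over all shared regions. The difference was -9.13 in replicate 1 and -3.24 in replicate 2, with a mean of -6.18 ± 4.17 (SD, n = 2). MaLR and ERVL LTRs, the most similar elements, also lay below, by a mean of -4.52 ± 2.70 (SD, n = 2), and L1 elements lay below by a mean of -2.78 ± 2.68. The 795 sites were below MaLR and ERVL LTRs by a mean of -1.66 ± 1.47 and below L1 elements by -3.41 ± 1.49 (SD, n = 2), with the same direction in both replicates. No test is given for such differences, because sites of a single pair of libraries are not replicates and an exact permutation test over 2 replicates cannot give a two-sided p under 0.5. In the highest score decile of both lists stood 85 of the 795 sites (10.7%, interval 8.73% to 13.03%), beside 12.4% of all shared regions. When every repeat name was represented by its best site alone, the difference in median turned to 7.62, since that choice keeps the highest ranks.

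Internal sequence scored below the LTRs, by a mean of -6.86 ± 0.858 percentile points (SD, n = 2). The 119 sites with internal names had median percentiles of 49.1 and 61.2, and 7 of them were in the highest decile of both lists. The 676 sites with LTR names had medians of 55.4 and 68.6, and 78 were in that decile. In ERV1, the 102 internal sites had medians of 49.1 and 59.5 and the 399 LTR sites 55.4 and 67.9. MER50-int, the most frequent, had 12 sites with medians of 50.0 and 68.1, 2 of them in the highest decile of both lists. HERV3-int had 4 sites with medians of 76.3 and 83.7. Of these 4 sites, 2 lay on sequences other than chromosomes 1 to 22, X and Y, as did 18 of all 795 sites. HERVH-int, the internal part of HERV-H, had 10 sites with medians of 47.3 and 45.0, none of them in the highest decile of both lists. HERVS71-int had 6 sites with medians of 37.2 and 29.2, also with none there.

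Within ERVK the names stood far apart. LTR3B, an LTR of the HERV-K3 (HML-6) group, ranged in percentile from 12.4 over a median of 81.9 to 98.9 in replicate 1, and from 25.1 over 90.3 to 99.1 in replicate 2. LTR5_Hs, a young LTR of HERV-K (HML-2), ranged from 0.471 over 31.1 to 86.5 and from 6.43 over 42.9 to 91.4. LTR13, an LTR of HERV-K13 (HML-4), ranged from 6.94 over 37.7 to 95.3 and from 0.491 over 45.4 to 94.8. The ranges overlapped, but the medians of LTR5_Hs and LTR13 were below that of LTR3B in both replicates. Relative to all shared regions the median of LTR3B was higher by 19.0 ± 1.09 (SD, n = 2), that of LTR5_Hs differed by -30.1 ± 3.49 and that of LTR13 by -25.5 ± 0.509. These differences between names were larger than the spread between the replicates. In deposited score, the LTR3B median was 41.3 in replicate 1 and 91.1 in replicate 2, and the LTR5_Hs median was 7.82 and 11.3, each comparable only within its list.

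**Figure D2:**
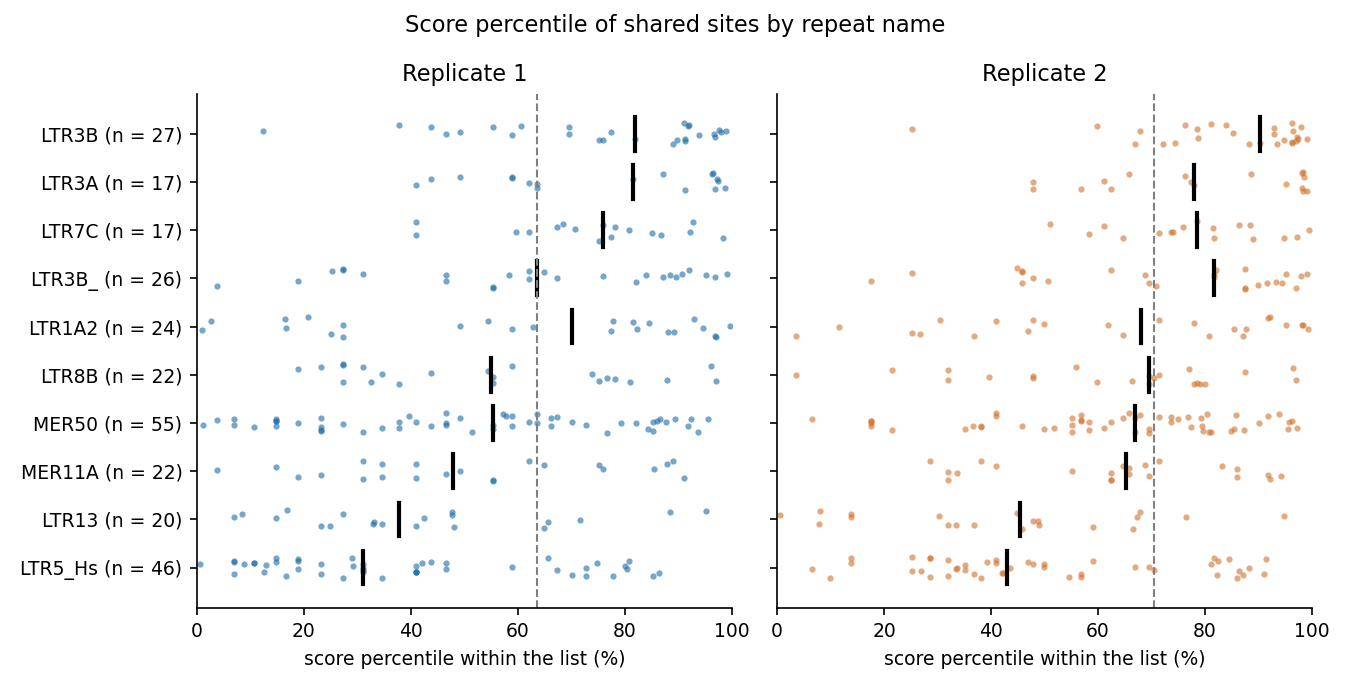
Score percentile within each list (x axis, percent) for every site of the 10 repeat names with at least 15 sites, in replicate 1 (left) and replicate 2 (right). Each point is a site, black bars are medians and the dashed line is the median of all shared regions, and LTR5_Hs and LTR13 have the 2 lowest medians in both replicates.

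The whole set of LTR3 names, which was grouped after the values were seen, had 74 sites with median percentiles of 75.6 and 84.6. Of these, 24 stood in the highest decile of both lists (32.4%, interval 22.9% to 43.7%), which was 28.2% of the 85 sites there. Of the 59 sites with LTR5 names, 0 did, with an interval up to 6.11%. MER11 names, LTRs of HERV-K11 (HML-8), had 42 sites with medians of 55.4 and 69.2, and 4 sites in that decile. MER11A alone had medians of 47.9 and 65.3.

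**Figure D3:**
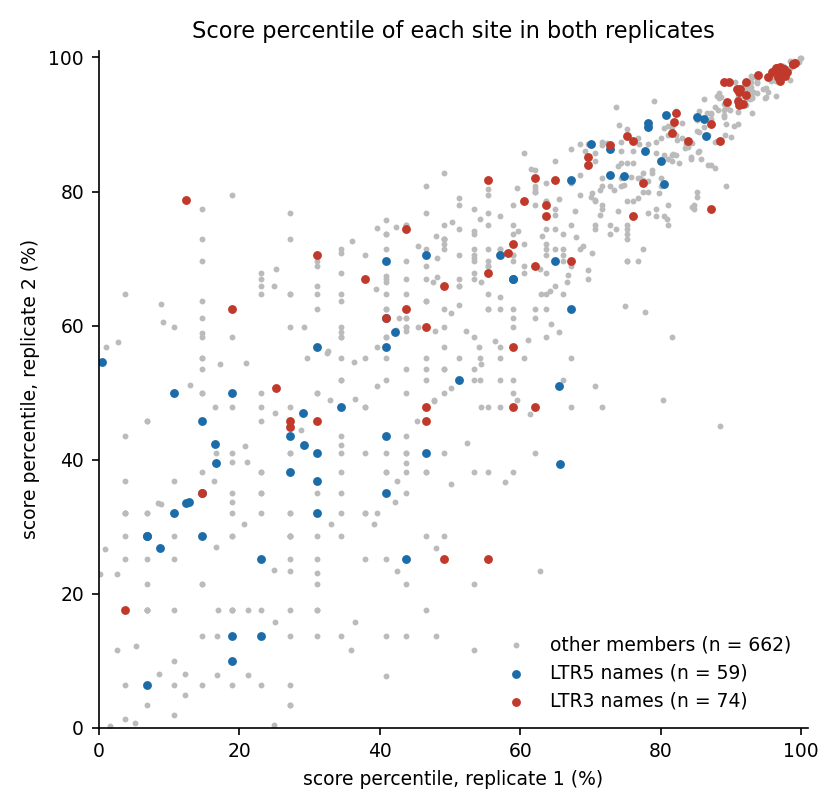
Score percentile of each of the 795 sites in replicate 1 (x axis, percent) and replicate 2 (y axis, percent), with the 74 sites of LTR3 names in red, the 59 of LTR5 names in blue and the other 662 in grey. The 24 LTR3 sites above percentile 90 in both lists lie in the upper right corner, where there are 0 LTR5 sites.

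Part of the LTR3 signal came from copies of 1 locus. LTR3A had 17 sites, of which 7 lay upstream of TP53TG3-named genes, a set of near-identical genes on the short arm of chromosome 16. They stood between 6907 and 7006 bp from the start site, which is almost the same place in each copy. On chromosome 16 their replicate 1 summits were 32246391, 32683041, 33187354, 33297411 and 33353871, and the other 2 were on an unlocalised sequence of that chromosome. Of the 7 copies, 6 were in the highest decile of both lists, with replicate 1 percentiles from 96.4 to 98.8, and the copy at 33353871 was at 63.6 in replicate 1 and 78.0 in replicate 2. How reads that fit several copies were assigned is not given in the sources used here, so the copies cannot be counted as separate observations. Without them, the 10 remaining LTR3A sites had medians of 60.5 and 64.2, below all shared regions by a mean of -4.72, whereas with them LTR3A was above by 12.7 ± 7.43 (SD, n = 2). No LTR3B site was nearest to these genes. After leaving out every site nearest a TP53TG3-named gene, 66 sites of LTR3 names remained, with medians of 69.6 and 81.7 and with 17 sites in the highest decile of both lists (25.8%, 16.7% to 37.4%).

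Among ERV1 names, LTR7C, an LTR of HERV-H, had 17 sites with medians of 76.0 and 78.5, above all shared regions by 10.2 ± 3.10 (SD, n = 2). Its lowest site was at 41.0 in replicate 1. MER50, the most frequent name, had medians of 55.4 and 67.0 and 4 of its 55 sites in the highest decile of both lists. LTR8B was at 54.9 and 69.6. LTR1 names were the most spread out, with quartiles of 25.1 and 84.5 in replicate 1 and of 32.0 and 87.7 in replicate 2 over 69 sites. LTR1B (5 sites) had medians of 17.0 and 32.0, and LTR1D (11 sites) had 74.8 and 86.1. LTR1A2 was above all shared regions in replicate 1 and below in replicate 2, and the mean difference of 2.05 ± 6.39 was within the spread between replicates. LTR3B_ likewise had a difference of 5.54 ± 7.95 that was within it.

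The 37 Gypsy sites had medians of 66.7 and 68.8, differing from all shared regions by 0.69 ± 3.40 (SD, n = 2). The 16 Gypsy? sites had medians of 54.4 and 72.1, a difference of -3.83 ± 7.63, smaller than its spread between replicates. The 7 sites of the family labelled LTR, named MamRep1527 (3 sites), LTR90A (2), LTR90B (1) and LTR107_Mam (1), had medians of 74.4 and 82.1 and lay above by 11.2 ± 0.522. Their number is small.

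The strongest site of all was in a MER72 element (ERV1) on chromosome 19, with hg38 summits at 35605363 and 35605413. It had a score of 556.2 and rank 23 in replicate 1, and 736.9 and rank 10 in replicate 2. It was intergenic and 7381 bp upstream of HAUS5, which encodes a subunit of the augmin complex of the mitotic spindle. LTR1 names gave the next 3 sites. An LTR1F1 element on chromosome 6 (summits 74452126 and 74452112, ranks 58 and 46) lay in intron 2 of 3 of a non-coding transcript, 382675 bp from the start of LOC101928516. An LTR1A2 element on chromosome 8 (12821328 and 12821329, ranks 113 and 275) was 9850 bp upstream of LOC340357. An LTR1 element on chromosome 5 (178074748 and 178074756, ranks 316 and 227) was 38807 bp upstream of N4BP3. The LTR1F1 site stood far above the medians of its name, which were 17.4 and 40.2 over 4 sites including itself.

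Among the ERVK sites with the next lowest rank sums, an LTR3B_ element lay in intron 4 of 7 at BTBD10 on chromosome 11 (13415355 and 13415376, ranks 272 and 327). LTR3B elements lay in intron 1 of 7 of a transcript upstream of RMND5A, a ubiquitin ligase subunit, on chromosome 2 (86703899 and 86703936, ranks 361 and 377), and 60722 bp upstream of LINC01012 on chromosome 6 (27633313 and 27633311, ranks 639 and 853). An LTR14B element on chromosome 22 lay 49807 bp from MCHR1, a receptor for melanin-concentrating hormone (40728985 and 40728975, ranks 810 and 567). The LTR3A copy with the lowest rank sum, on the unlocalised sequence, ranked 390 and 373. Of the ERV1 sites, a MER50-int element was 73481 bp from HSD17B6, a steroid dehydrogenase, on chromosome 12 (56836699 and 56836700, ranks 298 and 303). An LTR38B element lay in intron 3 of 5 of C1orf21 on chromosome 1 (184567928 and 184567976, ranks 402 and 296). An LTR7C element was 29274 bp upstream of CEACAM1, a cell adhesion molecule, on chromosome 19 (42557783 and 42557769, ranks 520 and 244). An LTR76 element near LINC01809 ranked 463 and 561, and a HERV3-int element in intron 1 of 6 at UGT2B7, a glucuronidation enzyme, ranked 521 and 616. An LTR81B element near KLHL7-DT, ranked 848 and 496, was the only Gypsy site among the 15 with the lowest rank sums.

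The best site of each remaining frequent name ranked lower. For LTR8B it lay in intron 4 of 18 of TRIM33, a regulator of TGF-beta signalling, on chromosome 1 (114458508 and 114458534, ranks 916 and 1435). For MER50 it was 20932 bp upstream of NARS2 on chromosome 11 (78595796 and 78595702, ranks 1410 and 1134). For MER11A it was 58290 bp upstream of HHIP, which binds hedgehog ligands, on chromosome 4 (144587706 and 144587709, ranks 3886 and 2322). The LTR5_Hs site with the lowest rank sum lay in intron 1 of 7 of BFAR on chromosome 16 (14636850 and 14636867, ranks 4797 and 3605).

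The best LTR13 site was at MITF, the transcription factor that directs melanocyte identity. Its summits were at 69920274 and 69920287 on chromosome 3, in intron 2 of 9 of an MITF transcript and 16326 bp upstream of another start site of the gene. The score was 117.7 (rank 1541, percentile 95.3) in replicate 1 and 143.6 (rank 2108, percentile 94.8) in replicate 2. This was the only 1 of the 20 LTR13 sites in the highest decile of both lists. The nearby gene SAMMSON, a non-coding RNA of melanoma cells, also had a site, chosen for mention after its values were seen. That site was an LTR1A2 element 340 bp from the SAMMSON start, with summits at 70000084 and 70000015, and it was weak, with percentiles of 0.914 and 26.7.

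The listed genes were each read against the 3.50% that the 795 sites make of all shared regions. Of 36 pigmentation genes, 3 were nearest to 1 site each. These sites were 2.38% of the 126 shared regions of any kind nearest to that list. None of them lay within 10 kb, beside 49 of the 126 regions. Besides MITF, the genes were OCA2 and RAB38. OCA2, a melanosomal transporter, had an LTR7C site in intron 18 of 23 (27933738 and 27933817 on chromosome 15, percentiles 77.4 and 81.7). RAB38, a GTPase of melanosome biogenesis, had a weak MER66-int site 84034 bp away (percentiles 14.7 and 21.4). Of 60 genes of interferon response and antigen presentation, 1 was nearest to a site, 4.55% of the 22 shared regions of that list. It was HLA-B, with an LTR13 element 16968 bp upstream (percentiles 27.2 and 13.8). Of 20 T-box target genes, 0 were, beside 35 shared regions. Genes with ZNF symbols, which include many KRAB zinc fingers that silence retroelements, were nearest to 14 sites, beside 525 shared regions. The 14 were 2.67% of those regions. Within 10 kb lay 3 of them, beside 36 of the 525 shared regions. The 3 were the LTR3B sites at ZNF439 (4788 bp) and ZNF549 (9057 bp) and the LTR3A site at ZNF169 (8507 bp). The others were at ZNF518B, ZNF697, ZNF644, ZNF726, ZNF717 (2 sites), ZNF432, ZNF664, ZNF254, ZNF670 and ZNF138, with percentiles in replicate 1 from 14.7 to 93.7.

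Sites lay in introns or between genes, because the deposited annotation gave a repeat name only there. Intergenic sequence held 521 sites (65.5% of all 795) and introns held 263 (33.1%), while 11 had no class. Over shared regions in these same 2 classes alone, satellite repeats included, 57.2% were intergenic. Of shared regions of any class outside satellite repeats, 44.4% were intergenic. The median distance of the sites from a transcription start site (TSS) was 38442 bp. Over all shared regions it was 51091 bp, and over those outside satellite repeats it was 37088 bp. Within 10 kb of a TSS lay 135 sites (17.0%, interval 14.5% to 19.7%), beside 16.7% of all shared regions and 13.4% of shared regions in introns or intergenic sequence. The 13.4% includes satellite repeats, and the share in introns or intergenic sequence without them was not computed. Within 50 kb lay 452 sites (56.9%, 53.4% to 60.3%), beside 49.0% of all shared regions. Of shared regions outside satellite repeats, 20.0% lay within 10 kb and 58.7% within 50 kb, both above the share of the sites. Within 1 kb lay 6 sites (0.755%), beside 0.716% of shared regions in those classes. All these distances are as deposited, and they did not count the RefSeq starts of the printed promoter windows. By the deposited distances, LTR46 and HERVS71-int each had 0 sites within 1 kb.

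ERVK sites were nearer to genes than ERV1 sites. Of 232 ERVK sites 57 were within 10 kb of a TSS (24.6%, 19.5% to 30.5%), against 69 of 501 ERV1 sites (13.8%, 11.03% to 17.1%), and the median distances were 24924 bp and 44289 bp. Without the sites nearest TP53TG3-named genes, 48 of 222 ERVK sites remained within 10 kb (21.6%, 16.7% to 27.5%). LTR13 names had 13 of 32 sites within 10 kb (40.6%, 25.5% to 57.7%) and LTR5 names 15 of 59 (25.4%, 16.1% to 37.8%). LTR8 names had 1 of 37 (2.70%, 0.479% to 13.8%) and LTR1 names 7 of 69 (10.1%, 5.00% to 19.5%). LTR3 names had 18 of 74 (24.3%, 16.0% to 35.2%), and without the sites nearest TP53TG3-named genes 10 of 66 (15.2%, 8.44% to 25.7%). MER11 names had 8 of 42 sites within 10 kb (19.0%), LTR7 names 3 of 21 (14.3%), MER41 names 2 of 16 (12.5%) and MER50 names 7 of 59 (11.9%). These groups of names were not among the planned results. The distances of the elements without a summit were not examined.

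**Figure D4:**
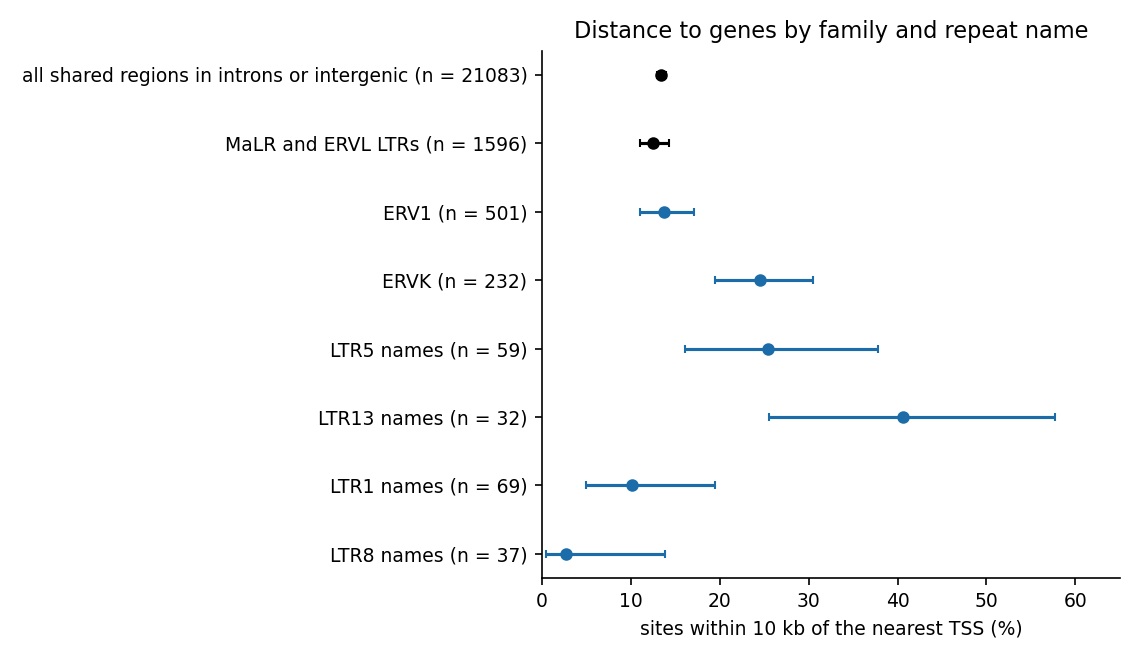
Share of sites within 10 kb of the nearest TSS (x axis, percent) by family and repeat name (blue), with shared regions in introns or intergenic sequence and MaLR and ERVL LTRs for comparison (black). The shared regions in introns or intergenic sequence include satellite repeats. Only some of the groups of names are drawn. Bars are 95% Wilson intervals for counting error only, and ERVK at 24.6% lies above ERV1 at 13.8%.

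The 10 sites closest to the TSS of a protein-coding gene ranged widely in score. An LTR5B site in intron 1 of 18 of SLC28A3, a nucleoside transporter, was 484 bp from the TSS (84368014 and 84367970 on chromosome 9, percentiles 41.0 and 61.2). An LTR14C site in intron 1 of 2 of QPRT, an enzyme of NAD synthesis, was 680 bp away (29679688 and 29679660 on chromosome 16, percentiles 54.3 and 76.0). An LTR5_Hs site was 1142 bp upstream of a PROM1 start, the gene of the surface antigen CD133 (16077260 and 16077376 on chromosome 4, percentiles 41.0 and 43.5). MER50 sites lay 1260 bp from BAAT, a bile acid conjugating enzyme (percentiles 51.4 and 65.9), and 2386 bp from ACSM3 (27.2 and 41.0). A MER49 site 1441 bp upstream of CNEP1R1 was at percentiles 75.8 and 82.2. The highest of these 10 was a MER83 site 2432 bp upstream of OR7A5, an olfactory receptor gene, at 82.1 and 92.0. The lowest in both replicates was a MER11A site 2213 bp from AMACR, at 19.0 and 33.7. The others were a HERV1_LTRd site 2726 bp from RNASE1 (76.0 and 84.2) and an LTR46 site 2814 bp from NKAPL (66.8 and 67.5).

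Distances to neighbours were taken among these sites only, and shared regions of other kinds were left out. The same distances over all shared regions were not computed. The values thus do not show whether the sites stood apart from other TBX3 summits. The median distance between neighbours on a chromosome was 2025174 bp, and 36 neighbouring pairs lay within 12 kb, about the reach of a provirus. In 13 of those pairs both sites had the same name. Examples, chosen after the values were seen, were LTR5_Hs sites 2249 bp apart on chromosome 1, LTR13 sites 4455 bp apart on chromosome 12, LTR3B sites 4693 bp apart on chromosome 4 and LTR8B sites 689 bp apart on chromosome 19. FAM85B on chromosome 8 was nearest to 6 sites between 8169441 and 8206114, in HERVE-int, HERVH-int, HERVK-int and LTR5A. LINC00971 on chromosome 3 was also nearest to 6 sites, spread from 83929101 to 84492331 over 6 names.

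Paired summits were close, with a median distance of 34 bp and a 90th percentile of 105 bp, against 28 bp and 97 bp over all shared regions. The median distance was 62 bp for LTR5_Hs and 23 bp for LTR3B. Spearman's rank correlation between the deposited scores of both lists was 0.863 across the 795 sites and 0.852 across all shared regions. These values describe sites within 1 pair of libraries, so no p is attached. The correlation was 0.933 for LTR3 names (74 sites), and 0.914 without the sites nearest TP53TG3-named genes (66 sites). It was 0.628 for LTR13 names (32 sites) and 0.472 for MER41 names (16 sites). No interval was computed for these groups.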

How the data were processed

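TBX3-HA ChIP was measured in 2 replicates, and a list of summits was analysed for each. HOMER's annotatePeaks.pl annotated the authors' summit file of each sample against hg38, per the file headers, so replicates were not pooled. Per the submitters' processing notes, FastQC 0.11.7, cutadapt 2.8, Bowtie2 2.3.5, MACS2 2.1.2 and SAMtools 1.9 were used. Their settings, the threshold and the treatment of multi-mapping reads are not given in the sources used here. The deposited peak score has no stated scale, so it was ranked only within its list, where 80.5% and 81.0% of summits shared their score with another. Start equalled end, so a peak has no width, and read depth is unknown. Labels name the replicates but not separate cultures, so their spread may be technical.

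Summits were paired as described, percentiles were computed with pandas 2.3.3 and 95% Wilson intervals with SciPy 1.17.1. Intervals cover counting error only. The pairing was tested on simulated data. Sites named in full were the 15 with the lowest rank sum, the best of each name with at least 15 sites, the 10 nearest a protein-coding TSS and those nearest a listed gene. Names were matched as deposited. The members and lists were chosen with earlier results of these data known. No test between conditions was possible. Alternatives covered the pairing distance, score limit, sequences, annotation source, each replicate alone, percentile base and TSS distance. No hg38 genome was used, so positions within elements were not examined.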

Additional observations from a re-analysis of the deposited data

How the results depend on the processing

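No paired analysis was possible because the input samples, which share replicate numbers with the ChIP samples, have no file here. Over 17 results, 89 alternatives were computed, and 68 were labelled unchanged. That label meant a value within the spread or interval of the main one, or for counts within a fixed ratio of it. By name, a replicate alone always lies within the SD around the mean of both replicates. Those alternatives could thus only keep or turn the direction, and their number within the spread carries no information. Those with 1 site per 12 kb, each replicate alone by name, and without the TP53TG3 copies were chosen after seeing the data. For values that changed, the cause was not tested. Stricter settings keep fewer summits by construction.

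The number of sites was 527 with pairs within 50 bp and 426 with scores at or above the median. Leaving out a replicate, which drops the pairing, gave 1171 to 1558. The share of replicate 1 summits with a partner was 45.0% at 50 bp, 60.6% at 100 bp, 73.1% at 500 bp and 88.0% at or above the median score, and with the annotation of replicate 2 it was 50.6% of replicate 2 summits. The difference in median percentile from all shared regions was -1.16 at or above the median score and turned to 7.62 with the best site of each name. In a single list, all summits of these families, with or without a partner, were compared with all summits of that list. That difference was -8.17 to -7.63. The rank correlation of the scores was 0.896 at 50 bp. Within 50 kb of a TSS lay 56.9% of sites, beside 49.0% of all shared regions, and 11 sites of listed or ZNF genes, against 3 within 10 kb. By name, LTR3A turned to -4.72 without the TP53TG3 copies, LTR3B_ to -0.0839 in replicate 1 alone and LTR1A2 to -2.47 in replicate 2 alone (6.57 in replicate 1 alone), while LTR3B, LTR7C, LTR5_Hs, LTR13, MER50, LTR8B and MER11A kept their direction in these settings.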

Other observations

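Replicate 2 held 769 summits of these families without a partner, and replicate 1 held 376. Their median percentiles were 25.1 and 17.2, so they lay mostly in the lower part of the lists. The class written as LTR?, which the selection leaves out, held 10 replicate 1 summits.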
